A study of Homo sapiens with 4 samples.

Results

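The genes described here form a set named for low oxygen and for the growth of blood vessels. Its members are fixed by gene name, with no threshold on a measured value, and it holds 10 genes of 20481 gene symbols on the array, *VEGF* (the array's name for *VEGFA*), *ADM*, *CA9*, *BNIP3*, *EGLN3*, *NDRG1*, *STC2*, *ANGPTL4*, *HIF1A* and *EPAS1*. Their 16 probes among the 33096 gene probes of each array were found by an exact match of the probe's gene symbol. Gene expression was measured in LN229, an established human glioblastoma line, after transfection with siRNA against *SOX2* (*SOX2* knockdown) or with a control siRNA without a target (mock knockdown). There were 2 arrays per group, each hybridised with the labelled RNA of 1 culture. The study's methods describe them as biological replicates with separate transfections. All 4 cultures were transfected cells of 1 line, no untransfected culture is among them, and the labels name no change in oxygen. Which of the *SOX2* siRNAs was put on the arrays is not given in the sources used here.

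When oxygen is short, the hydroxylases that mark the alpha subunits of the hypoxia-inducible factors (HIF) for destruction slow down, the subunits accumulate, and with their partner ARNT they switch on genes for glucose use, acid export, mitochondrial turnover and vessel growth. HIF binds the short DNA cores ACGTG and GCGTG. Control of *HIF1A* and *EPAS1* is mostly at the level of the protein, so that their RNA is no readout of HIF activity. Several genes of the set also answer to other stress signals. *STC2* and *VEGFA* are known to be induced through ATF4, a transcription factor made when cells lack amino acids or carry misfolded proteins, and glioblastoma is a tumour in which hypoxia and new vessels are common.

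Because the set is held together by HIF, the 250 bases before the annotated gene start were searched for the cores. The collection of RefSeq promoters used here (GRCh38.p14) held an entry for 8 of the 10 genes. It held none for *VEGF* or *NDRG1*, whose promoters were therefore not searched. Sequences are given for *BNIP3*, *ANGPTL4* and *STC2*, each with at least 1 probe higher after *SOX2* knockdown, and for *CA9*, which shares ACGTG with *BNIP3* and *ANGPTL4* and had a like signal in both groups. They run 5′ to 3′ along the gene, with ACGTG or GCGTG, on either strand and overlaps included, in capitals.
*BNIP3*, chr10:131981924-131982173, minus strand: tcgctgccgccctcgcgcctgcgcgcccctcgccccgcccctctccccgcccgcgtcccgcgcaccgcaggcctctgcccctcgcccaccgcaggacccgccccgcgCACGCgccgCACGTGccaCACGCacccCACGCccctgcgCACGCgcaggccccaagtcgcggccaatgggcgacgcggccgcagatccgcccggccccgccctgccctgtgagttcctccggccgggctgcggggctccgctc
*ANGPTL4*, chr19:8363905-8364154, plus strand: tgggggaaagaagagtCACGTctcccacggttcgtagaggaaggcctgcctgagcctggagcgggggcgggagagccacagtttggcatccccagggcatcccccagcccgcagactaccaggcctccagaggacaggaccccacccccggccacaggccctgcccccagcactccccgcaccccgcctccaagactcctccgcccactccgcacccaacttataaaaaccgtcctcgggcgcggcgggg
*STC2*, chr5:173328415-173328664, minus strand: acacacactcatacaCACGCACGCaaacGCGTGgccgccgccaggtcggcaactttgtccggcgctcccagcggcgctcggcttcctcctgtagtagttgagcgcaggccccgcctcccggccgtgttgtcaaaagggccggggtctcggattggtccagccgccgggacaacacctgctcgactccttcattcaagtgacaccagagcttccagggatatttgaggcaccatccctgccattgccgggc
*CA9*, chr9:35673678-35673927, plus strand: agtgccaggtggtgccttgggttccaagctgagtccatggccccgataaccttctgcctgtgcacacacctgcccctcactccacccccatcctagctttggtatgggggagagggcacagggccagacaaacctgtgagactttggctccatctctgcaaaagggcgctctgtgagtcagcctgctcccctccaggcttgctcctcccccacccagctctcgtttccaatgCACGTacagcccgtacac

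Of the 8 genes, 7 held ACGTG or GCGTG in this window, as did 43.2% of 35116 promoters in the same collection. Counted by itself, ACGTG was in 3 of them (*BNIP3*, *ANGPTL4* and *CA9*) and in 18.5% of all promoters, and GCGTG was in 32.2% of all. Positions are counted back from the gene start, at the left end of the match. *CA9* held its ACGTG at -18, close to the start, *ANGPTL4* at -234, and *BNIP3* at -134 and -133 on opposite strands, where both matches form 1 E-box (CACGTG, in 6.34% of promoters). *BNIP3* also had GCGTG at -143, -125, -116 and -104, and *STC2* had it at -235, -231 and -222. *ADM* held 1 match at -101, *EPAS1* 1 at -117, *HIF1A* 1 at -204 in 1 of its 2 entries, and *EGLN3* none. The element TGATGNAAN, which ATF4 binds with C/EBP partners, was in 0 of the 8 windows and in 3.13% of all. These letters are a description of the windows and do not locate a binding site.

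The signals of an array are given as multiples of their 75th percentile, with 0.01 as the floor, and levels of different probes are not compared. A probe was kept where its signal-to-noise ratio (S/N, the signal over its own error) exceeded 3 on the 2 arrays of mock knockdown or the 2 of *SOX2* knockdown, which left 21256 probes and 14 of the 16 in the set. S/N was over 3 for between 63.5% and 68.9% of probes on the 4 arrays. The targeted gene was read first. *SOX2* gave 0.467 and 0.701 in mock knockdown against 0.209 and 0.149 after the siRNA, a ratio of 0.307 (log2 change -1.69, SE 0.28, adjusted p = 0.117, limma), with S/N of 3.17 and 3.06 in the knockdown. The groups did not overlap, in the direction of the labels. A label on the treatment speaks of SW620 (from colon cancer) where the others give LN229. All 6 glial and glioma markers were kept, with vimentin (*VIM*) at 51.5, 59.1, 59.6 and 51.1 in the order mock 1, mock 2, knockdown 1, knockdown 2, and 3 of 8 colon epithelium markers were kept. Of these 3, villin (*VIL1*) had S/N over 3 on all 4 arrays, at signals of 0.0653 to 0.0924, and *CDX2* and *LGALS4* had it on the mock arrays only, while E-cadherin (*CDH1*) was at the floor of 0.01 on every array.

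Of the 16 probes, 3 were over 2-fold higher after *SOX2* knockdown, 1 each for *VEGF*, *BNIP3* and *STC2*, and 0 were over 2-fold lower. Among all probes kept, 1.57% were over 2-fold higher and 1.04% over 2-fold lower. The 2 groups did not overlap, with the knockdown higher, for 8 probes of 6 genes (*VEGF*, *ADM*, *BNIP3*, *NDRG1*, *STC2* and *ANGPTL4*), a pattern met by 21.2% of all probes kept, while 25.8% lay apart with the knockdown lower and no kept probe of the set did. The same 8 probes had an unadjusted p under 0.05 in limma, as did 7.9% of all probes with the knockdown higher and 9.16% with it lower. Of the 8, 1 probe of *STC2* and 1 of *NDRG1* were kept through the knockdown arrays only, where they are high. Of the 12 probes of the set with S/N over 3 on all 4 arrays, 6 lay apart with the knockdown higher. The share of all probes with S/N over 3 on all 4 arrays that lay apart was not computed, so this count has no background.

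No probe of the set reached an adjusted p of 0.05 (limma, Benjamini-Hochberg over all probes kept). Neither did any probe on the array: 0 of 21256 (0%) passed, *SOX2* included, with 3626 at an unadjusted p under 0.05 and a smallest adjusted p of 0.0582. The smallest adjusted p in the set was 0.0945. Each statement below on a difference is therefore on its size and on the spread of 2 against 2 arrays. An exact permutation test of a single probe could not go below p = 0.333, two-sided. The median log2 change was 0.43 over the 14 kept probes against 0.00 over all, but 2 of the 14 were kept through the knockdown arrays only, which favours a higher knockdown signal. Over the 12 probes with S/N over 3 on all 4 arrays the median was 0.34, against 0.00 for 19461 such probes. Over 2-fold higher were 2 of the 12 and 177 of the 19461, and over 2-fold lower were 0 and 125.

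**Figure D1:**
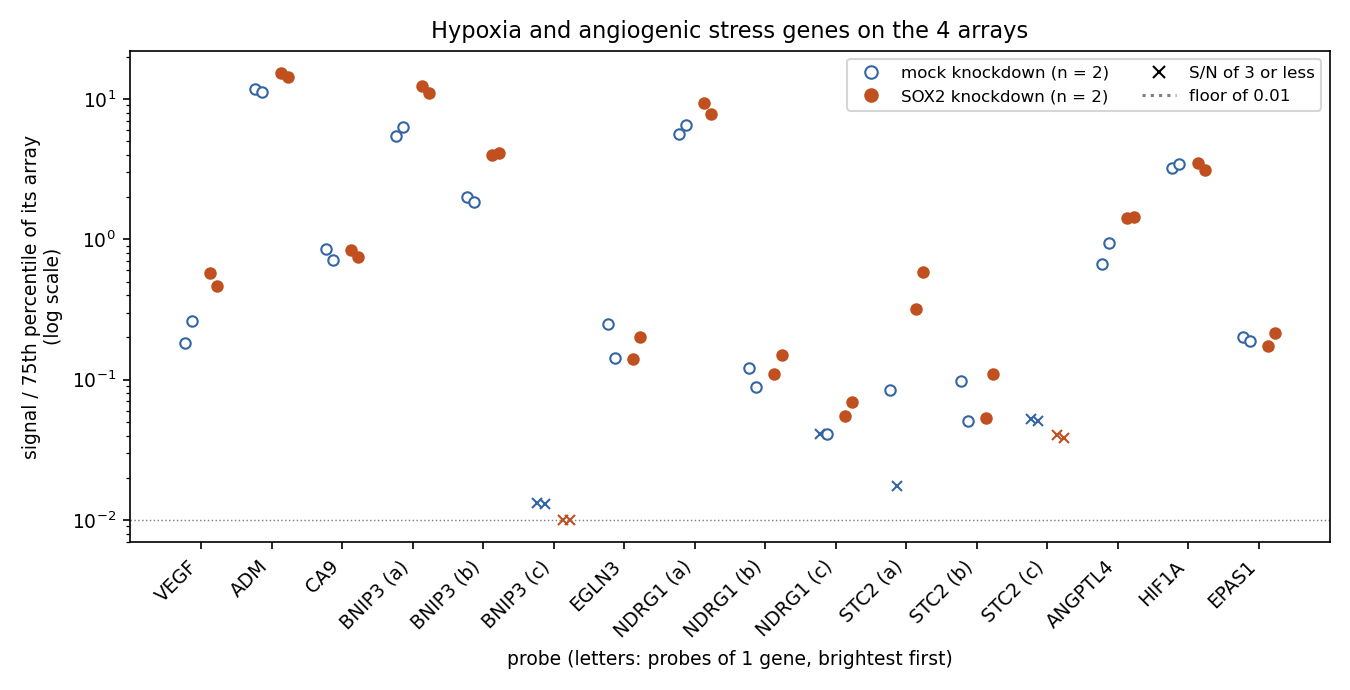
Signal of each of the 16 probes on the 4 arrays (vertical axis, relative to the 75th percentile of the array, log scale; horizontal axis, probe, with letters for probes of 1 gene from the highest mean over the 4 arrays down). Open blue points are mock knockdown, filled orange points *SOX2* knockdown, and crosses mark S/N of 3 or less. *VEGF*, *ANGPTL4*, *BNIP3* (a) and (b) and *STC2* (a) sit higher in the knockdown, and *CA9*, *EGLN3*, *HIF1A* and *EPAS1* overlap.

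The HIF subunits themselves had like signals in both groups. *HIF1A* (hCG21199.3), the oxygen-regulated subunit found in most cells, gave 3.23 and 3.43 in mock knockdown and 3.52 and 3.11 after *SOX2* knockdown. *EPAS1* (hCG17031.3), which encodes HIF-2 alpha, gave 0.203 and 0.19 against 0.174 and 0.215. For both genes the groups overlapped, with log2 changes of -0.01 (SE 0.14) for *HIF1A* and -0.03 (SE 0.16) for *EPAS1*. The 95% interval ran from 0.768- to 1.29-fold for *HIF1A* and from 0.726- to 1.33-fold for *EPAS1*, so a change of 2-fold in either RNA lay outside these intervals.

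*EGLN3* (hCG41109.2), a prolyl hydroxylase that is itself a HIF target, had 0.248 and 0.142 in mock knockdown and 0.141 and 0.203 in *SOX2* knockdown. The replicates of each group lay farther apart than the group means, and the log2 change of -0.15 (SE 0.34) had an interval from 0.477- to 1.7-fold, which includes a 2-fold fall. Its relative *EGLN1*, the main oxygen sensor of the pathway, lay apart, with 0.462 and 0.554 against 0.807 and 0.688, or 1.47-fold (log2 change 0.56, SE 0.17, adjusted p = 0.226, limma). *SIAH2*, a ubiquitin ligase that acts on the prolyl hydroxylases and is named here after its value was seen, had 0.449 and 0.561 against 0.842 and 0.79, or 1.62-fold (log2 change 0.70, SE 0.17, adjusted p = 0.167, limma). The asparagine hydroxylase *HIF1AN* had a ratio of 0.986, the ubiquitin ligase subunit *VHL* of 1.02 and the partner subunit *ARNT* of 0.888. Of 16 genes of the HIF machinery, 15 were kept, 0 of them were over 2-fold in either direction, and their median log2 change was 0.03, which lay between -0.03 and 0.13 when scaling, background correction, floor or filters were varied or 1 array was left out (the alternatives).

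Among the secreted members, *VEGF* and 1 of the *STC2* probes were over 2-fold higher after *SOX2* knockdown, and *ANGPTL4* and *ADM* were higher by less. *VEGF* (gene ID hCG18998.4), the growth factor that draws endothelial cells toward hypoxic tissue, gave 0.183 and 0.26 in mock knockdown against 0.573 and 0.465 after *SOX2* knockdown. The lower knockdown array was above the higher mock array by more than either pair of replicates spread, and every *VEGF* signal had S/N of 14.4 or more. The ratio was 2.34 (log2 change 1.24, SE 0.23, adjusted p = 0.129, limma), with a 95% interval from 1.54- to 3.64-fold. It was below 2-fold when the raw reading was taken, corrected with normexp (a model of background plus signal) and quantile-normalized, the setting called normexp from here on (log2 change 0.83), and without mock replicate 1 (0.99).

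*ANGPTL4* (hCG23958.3), a secreted inhibitor of lipoprotein lipase that acts on vessel permeability, stood at 0.667 and 0.936 in mock knockdown and at 1.42 and 1.45 in *SOX2* knockdown. The groups did not overlap and the knockdown arrays were close to each other, with a ratio of 1.79 (log2 change 0.86, SE 0.21, adjusted p = 0.167, limma). Without mock replicate 2 the log2 change was 1.11, which is over 2-fold, and without mock replicate 1 it was 0.62. *ADM* (hCG23989.3), the vasodilator peptide adrenomedullin, was a bright probe with a small difference. It gave 11.7 and 11.3 against 15.3 and 14.4, 1.29-fold (log2 change 0.37, SE 0.13, adjusted p = 0.26, limma), and each group's replicates lay close together.

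*STC2*, a secreted glycoprotein, had 3 probes for 1 gene ID (hCG40281.3), and they did not give 1 answer. The probe with the highest mean signal over the 4 arrays gave 0.0842 and 0.0174 in mock knockdown against 0.318 and 0.584 in the knockdown. Its ratio was 8.87 (log2 change 3.49, SE 0.83, adjusted p = 0.167, limma). In mock knockdown alone its mean of 0.0508 was below those of the other probes (0.0741 and 0.0518). It thus ranks first only through the knockdown arrays. The signal of 0.0174 had an S/N of 0.74, and with that signal raised to the value at which S/N would be 3 the ratio was 6.61. The second probe gave 0.0974 and 0.0509 against 0.0534 and 0.109, with overlapping groups and a ratio of 1.1 (log2 change 0.12, SE 0.48). The third had S/N under 3 on all 4 arrays and was not kept.

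The distance between the *STC2* probes is wide. The 95% interval of the first probe ran from 2.43- to 51.9-fold and that of the second from 0.443- to 2.65-fold. The files do not place the probes on transcripts, so whether they read different transcripts was not tested. Averaged over the gene ID, *STC2* had a ratio of 3.24. The first probe remained over 2-fold in every alternative that kept it, down to 2.72-fold with normexp, but its size rested on single mock arrays, with 25.8-fold without mock replicate 1 and 5.36-fold without mock replicate 2. The setting that asks for S/N over 3 on all 4 arrays dropped it.

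*BNIP3* encodes a mitochondrial receptor for autophagy and is a well-known HIF target. Its brightest probe (gene ID hCG22816.3) had 5.43 and 6.29 in mock knockdown against 12.4 and 11 in the knockdown, and a probe listed under a transcript ID (R26_hCT31227.2) had 1.99 and 1.86 against 3.96 and 4.11. Both pairs of groups were far apart against the spread of their replicates, and the probes gave nearly the same change. The ratios were 1.998 (SE 0.15 on the log2 scale, adjusted p = 0.107, limma) and 2.09 (log2 change 1.07, SE 0.13, adjusted p = 0.0945, limma), so that one probe lay just under the 2-fold cutoff and the other just over it. The dimmest probe of *BNIP3* had S/N under 3 on all 4 arrays and was not kept. Of the set, *BNIP3* had the smallest p (0.000731, unadjusted) and its log2 change stayed between 0.89 and 1.14 for both probes in every alternative.

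*NDRG1* (hCG32451.4), a stress-responsive gene of the N-myc downstream regulated family, had 3 probes as well. The brightest gave 5.67 and 6.58 against 9.4 and 7.79, with groups apart and a ratio of 1.4 (log2 change 0.49, SE 0.17, adjusted p = 0.264, limma). The second overlapped between the groups, with 0.122 and 0.0887 against 0.11 and 0.151 (log2 change 0.31, SE 0.25). The dimmest gave 0.0413 and 0.0407 against 0.0549 and 0.0688, a log2 change of 0.58 (SE 0.16, adjusted p = 0.205, limma). On 1 mock array S/N was 2.05, and its log2 change was -0.13 with normexp. None of the *NDRG1* probes reached 2-fold.

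*CA9* (hCG37623.3), carbonic anhydrase IX, a membrane enzyme that exports acid and is a standard marker of hypoxic tumour cells, had 0.851 and 0.708 in mock knockdown and 0.839 and 0.745 in *SOX2* knockdown. The groups overlapped, and the log2 change was 0.03 (SE 0.16) with an interval from 0.754- to 1.38-fold. Its signals had S/N of 24.2 or more. A difference of 2-fold lay outside the interval, which comes from the limma SE and not from S/N. *CA9* and *BNIP3*, whose windows both hold ACGTG, had intervals that did not overlap for either *BNIP3* probe (lower ends at 1.5- and 1.65-fold). The interval of *ANGPTL4*, whose window also holds ACGTG, ran from 1.24- to 2.66-fold and overlapped that of *CA9*. *CA12*, another carbonic anhydrase of the HIF response, was not kept.

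**Figure D2:**
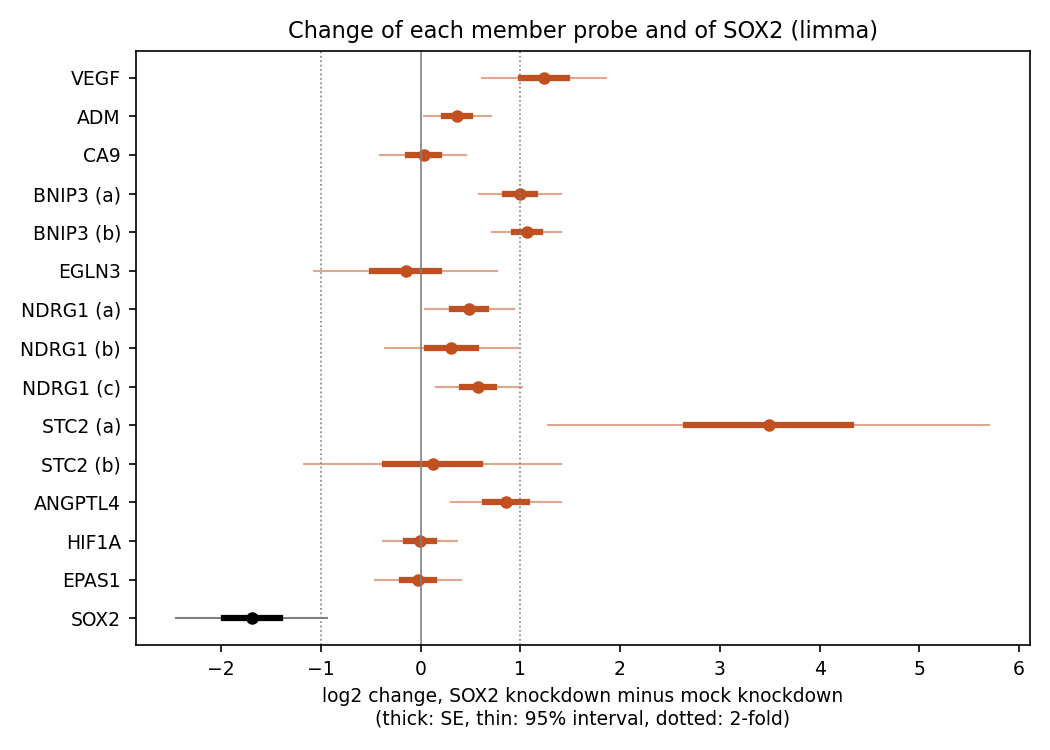
Log2 change of each kept probe, *SOX2* knockdown minus mock knockdown (horizontal axis; points are estimates of limma from 2 against 2 arrays, thick bars the SE, thin bars the 95% interval, dotted lines 2-fold). The intervals of *CA9*, *HIF1A* and *EPAS1* lie within 2-fold on both sides, that of *STC2* (a), the first *STC2* probe, runs from 1.28 to 5.70, and *SOX2* is at -1.69.

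The other HIF targets were read from a list of 41 genes, of which 36 were kept. Over 2-fold higher were 4 of them, 0 were over 2-fold lower, 30 had a log2 change above 0, and the median was 0.24 against 0.00 over all probes. Of all 21256 probes kept, 1.57% were over 2-fold higher, 1.04% over 2-fold lower, and 10593 had a log2 change above 0. With *DDIT4* and *VLDLR* left out, which ATF4 also induces, 3 of 34 were over 2-fold and the median was 0.22. In the alternatives the median of the full list lay between 0.16 and 0.30, with 2 to 5 genes over 2-fold higher. The largest was heme oxygenase *HMOX1*, a heme-degrading enzyme with 1.19 and 1.36 against 6.33 and 5.67, or 4.69-fold (log2 change 2.23, SE 0.15, adjusted p = 0.064, limma). *PDK1*, a kinase that inhibits pyruvate dehydrogenase, was 2.05-fold higher. *HMOX1* is known to be induced by oxidative stress besides HIF.

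*DDIT4*, an inhibitor of mTORC1 that both HIF and ATF4 induce, was 2.33-fold higher (log2 change 1.24, SE 0.21, adjusted p = 0.117, limma), with 2.01 and 2.83 against 5.8 and 5.46. *PDK1* and *DDIT4* were below 2-fold without mock replicate 1 (log2 changes 0.85 and 0.99), and *PDK1* also with normexp (1.92-fold), with median scaling (1.99-fold) and without *SOX2* knockdown replicate 1 (1.96-fold). *VLDLR*, a lipoprotein receptor, was 1.58-fold higher. *BNIP3L*, the close relative of *BNIP3* in mitochondrial turnover, had 2.16 and 2.81 against 3.41 and 2.87, groups that lay barely apart, with a log2 change of 0.34 (SE 0.20). In the same arrays the 41 targets had summed signals of 386 and 442 in mock knockdown and of 490 and 461 in *SOX2* knockdown. Such sums follow the brightest probes and include genes that were not kept, so they do not describe the list gene by gene.

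The ATF4 targets were read because *STC2* and *VEGF* belong to both responses. Of 33 listed genes 32 were kept, 14 were over 2-fold higher, 0 lower, 30 had a log2 change above 0, and the median was 0.83. Among all probes kept, 1.57% were over 2-fold higher and 10593 of 21256 had a log2 change above 0. Of the 14 genes, *INHBE* and *SLC7A1* were kept through the knockdown arrays only, which favours a higher knockdown signal. In the alternatives the median lay between 0.73 and 0.90 and from 10 to 15 genes were over 2-fold higher. The list was written with earlier results of these arrays known, and so is no independent evidence of its direction. The pseudokinase *TRIB3* gave 4.31 and 4.18 against 15.9 and 16.9 (3.87-fold). *CHAC1*, which degrades glutathione, was 4.18-fold, the stress regulator *SESN2* 4.28-fold, *DDIT3*, which encodes the transcription factor CHOP, 3.13-fold and the cysteine-forming enzyme *CTH* 2.7-fold higher, with adjusted p between 0.064 and 0.0911 (limma). *INHBE*, an inhibin subunit, was not well above background on either mock array, with group means of 0.0389 and 0.363 (adjusted p = 0.0582, limma). Its fold is uncertain, being 3.12 with the mock signals set where S/N would be 3, with a log2 change of 1.21 with normexp.

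Set side by side, the log2 changes of *VEGF* (1.24), both *BNIP3* probes and the first *STC2* probe (3.49) lay above the medians of the HIF targets (0.24) and of the ATF4 targets (0.83). *ANGPTL4* (0.86) was near the ATF4 median, which lay between 0.73 and 0.90 in the alternatives. *ADM* (0.37) and the *NDRG1* probes (0.49, 0.31 and 0.58) lay between the 2 medians. Those of *CA9* (0.03), *EGLN3* (-0.15), *HIF1A*, *EPAS1* and the second *STC2* probe (0.12) lay below both. These places are of point estimates. Of the 95% intervals, that of the first *STC2* probe (1.28 to 5.70) lay above both medians. Those of *VEGF* (0.62 to 1.86), *BNIP3* and *ANGPTL4* lay above the HIF median and included the ATF4 median. Those of *ADM* (0.03 to 0.71), *CA9*, *EGLN3*, *HIF1A* and *EPAS1* included the HIF median and lay below the ATF4 median. Those of the *NDRG1* probes and the second *STC2* probe included both. Both lists were wide, from -0.29 to 2.23 for the HIF targets and from -0.24 to 3.23 for the ATF4 targets. The part of ATF4 or of HIF in any of these values was not tested, as neither protein was measured.

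**Figure D3:**
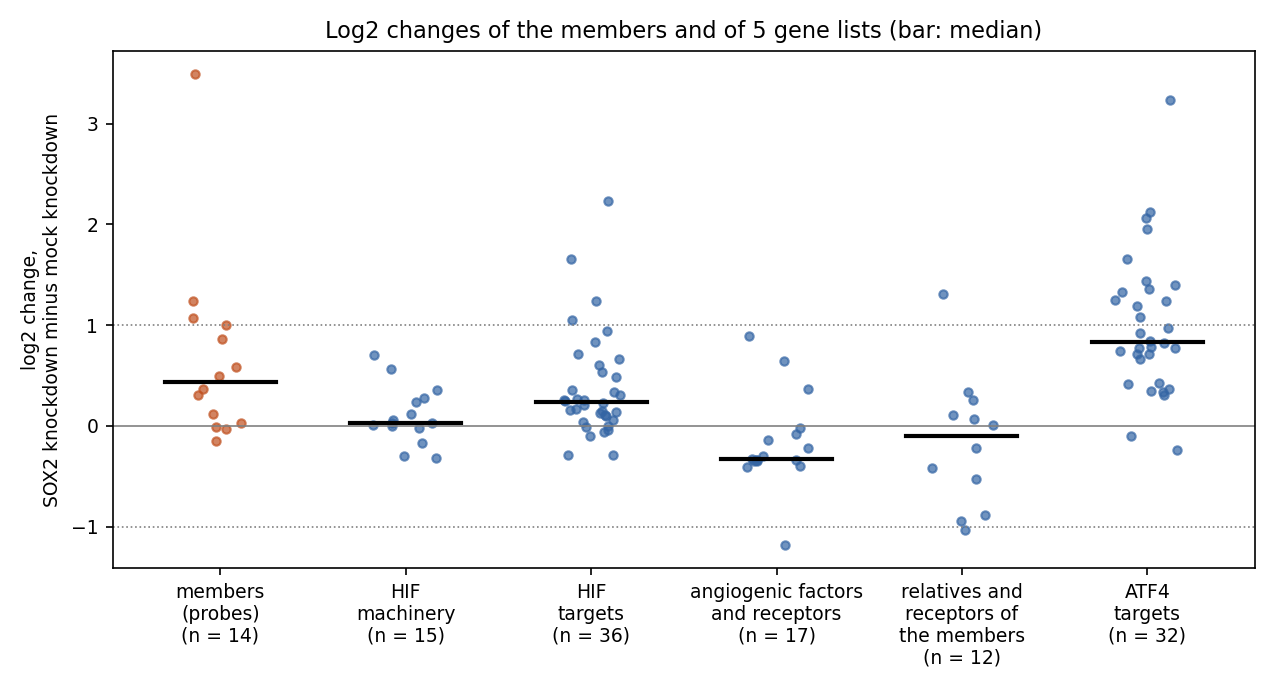
Log2 changes, *SOX2* knockdown minus mock knockdown (vertical axis), of the 14 kept probes of the set (orange) and of the kept genes of 5 lists (blue, the brightest probe of each gene). Black bars are medians and dotted lines 2-fold. The median is 0.43 for the set, 0.24 for the HIF targets, 0.83 for the ATF4 targets and -0.33 for the angiogenic factors and receptors.

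Most other vessel genes had log2 changes below 0. Of 27 angiogenic factors and receptors 26 were on the array and 17 were kept, with a median log2 change of -0.33, which lay between -0.36 and -0.21 in the alternatives. None was over 2-fold higher as reported. *KDR*, the main signalling receptor for VEGFA, was lower, with 0.114 and 0.138 against 0.0534 and 0.057, a ratio of 0.439 (log2 change -1.18, SE 0.16, adjusted p = 0.099, limma). Its S/N in the knockdown was 6.94 and 3.07, and it was not past 2-fold with normexp (-0.49). Above 0 were 3 genes. *THBS1*, the vessel inhibitor thrombospondin, named here after its value was seen, had 1.84 and 1.65 against 3.65 and 2.84, or 1.86-fold (log2 change 0.89, SE 0.18, adjusted p = 0.14, limma), and was over 2-fold without *SOX2* knockdown replicate 2 (2.09-fold). *FLT1*, the receptor that binds VEGFA most tightly, was 1.29-fold, and the co-receptor *NRP1* 1.54-fold with S/N over 3 on 1 of the 2 mock arrays and a log2 change of -0.18 with normexp.

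LN229 is a tumour line without vessel cells, and the endothelial markers were read for that reason. Only 1 of 8 was kept, *KDR* itself, the junction protein *CDH5* was at or near the floor of 0.01 on all 4 arrays, and the summed signal of the list was 0.322 and 0.316 in mock knockdown against 0.214 and 0.206 in *SOX2* knockdown. That sum holds *KDR* and the markers that were not kept, 4 of them with S/N of 3 or less on every array. It is therefore no measure of a change in the other endothelial markers. Of 5 leukocyte markers 2 were kept. In bulk RNA, fewer cells that carry a transcript and less of it per cell cannot be told apart.

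The relatives and receptors of the set completed the comparison. *STC1*, the second stanniocalcin, had 0.873 and 0.999 against 2.38 and 2.24, or 2.47-fold higher (log2 change 1.31, SE 0.14, adjusted p = 0.0833, limma), with tight replicates and over 2-fold in every alternative. *NDRG2*, of the same family as *NDRG1*, had 0.277 and 0.279 against 0.141 and 0.131, a ratio of 0.489 (log2 change -1.03, SE 0.13, adjusted p = 0.0945, limma), which became -0.82 with normexp. For adrenomedullin, the receptor *CALCRL* and its partner *RAMP3* were not kept. *RAMP2*, which pairs with *CALCRL* to make an adrenomedullin receptor, is named here after its value was seen. It was lower, at 0.309 and 0.31 against 0.168 and 0.166 (ratio 0.54, log2 change -0.89, SE 0.12, adjusted p = 0.101, limma). *RAMP1*, which pairs with *CALCRL* to make the receptor of the related peptide CGRP, was also lower, at 19.5 and 22.7 against 11.2 and 10.6 (ratio 0.517, log2 change -0.95, SE 0.15, adjusted p = 0.106, limma). Of the 20 genes of this list 12 were kept, with *STC1* and *NDRG2* the only ones over 2-fold, and a median log2 change of -0.10 (from -0.17 to -0.01 in the alternatives).

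**Figure D4:**
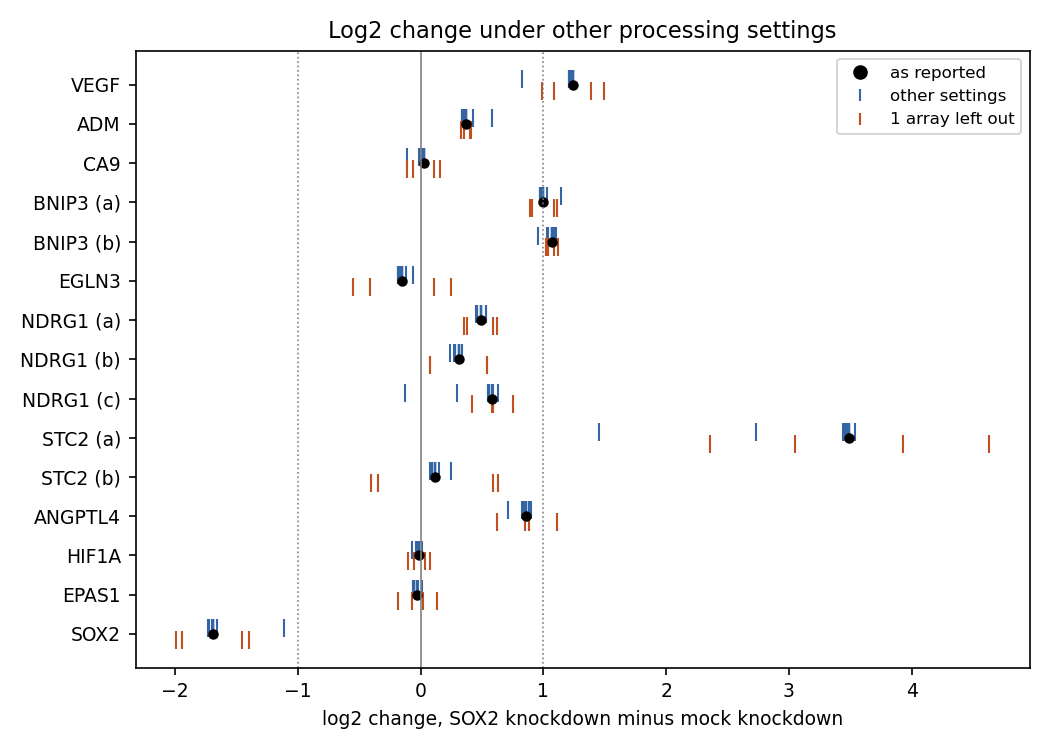
Log2 change of each kept probe (horizontal axis) as reported (black), under other processing settings (blue ticks) and with 1 array left out (orange ticks); dotted lines mark 2-fold. Both *BNIP3* probes stay close to 1, *STC2* (a) spreads from 1.45 to 4.63, and *CA9*, *EGLN3*, *HIF1A* and *EPAS1* lie on both sides of 0.

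The kept probes of *VEGF*, *ADM*, *BNIP3* and *ANGPTL4*, the 2 brighter *NDRG1* probes and the first *STC2* probe, 8 in all, were higher in the knockdown in each alternative and with each array left out. Where the groups do not overlap, leaving out 1 array cannot turn the direction. Of the 8, only the second *NDRG1* probe had overlapping groups, so for the others that part was fixed beforehand. The other 6 kept probes changed direction in at least 1 alternative.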

How the data were processed

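Total RNA of transfected LN229 cells was biotin-labelled and hybridised to 1-colour Applied Biosystems arrays read by chemiluminescence, 2 per group. Groups came from the source names in the labels and replicate numbers from the titles. The deposited scanner files give normalized and raw intensity on a linear scale, with the standard error of each signal. The deposited S/N and flag columns are scores, and the meaning of the flags is not given in the sources used here. A second deposited table holds the authors' processed values, a linear ratio of each probe's scaled signal to its median over the arrays, or to 10 for dimmer probes, floored at 0.01. Its column medians were 0.102 on each array, and it was used as an alternative. The authors' methods name GeneSpring with scaling of each array to its 75th percentile.

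Here the deposited normalized intensity of the 33096 gene probes was taken, and 210 probes that reached a flag of 5000 on 1 or more arrays were left out. Each array was divided by its 75th percentile (between 5.91 and 6.8 before scaling), values were floored at 0.01, and log2 was taken. The filter on S/N over 3, in the mock or the knockdown pair of arrays, dropped 11630. Ratios are those of the linear means of 2 replicates, with the 2-fold cutoff of the study's methods. Differences were tested with limma 3.58.1 (R 4.3.3; lmFit and eBayes, two-sided, no block), with Benjamini-Hochberg adjustment over all probes kept and 4.44 degrees of freedom. P-values and intervals cover the variation between the 2 transfections of each group and no other source. Each probe's own spread was drawn by limma toward a value taken from all probes kept (2.44 prior degrees of freedom within the 4.44). The script was tested on simulated data.

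The set and the gene lists were chosen with earlier results of these data known. Of 164 list entries 163 were found on the arrays through symbols and synonyms in RefSeq's gene table. The brightest probe, by mean signal over all 4 arrays with the knockdown included, stood for a gene. Named were *SOX2*, every probe of the set, the genes over 2-fold in each list (up to 6 by size of the log2 change), and *EGLN1*, *HIF1AN*, *VHL*, *ARNT*, *STC1*, *BNIP3L*, *DDIT4*, *VLDLR*, *CA12*, *KDR*, *FLT1*, *NRP1*, *CALCRL* and *RAMP1*. Markers, *SIAH2*, *THBS1*, *RAMP2*, *RAMP3* and *SLC7A1* were named outside that rule. The values of 1 gene among the HIF targets are not reported here. Alternatives changed 1 choice at a time (scaling, background correction, the authors' table, floor, filters, fold cutoff, averaging by gene ID, variance model, replicate block, each array left out). An exception is normexp, with an offset of 50, which was run on the raw reading and followed by quantile normalization, so that the signal column, background and scaling changed together.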

Additional observations from a re-analysis of the deposited data

How the results depend on the processing

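Precision is limited by the small number of arrays, 2 a group, and dim signals add to this: S/N of 3 or less touched 1 mock array each of the first *STC2* probe and of the dimmest *NDRG1* probe. No kept probe of the set was dim on both arrays of a group, so the planned lower bound for such probes gave no value. Of 272 log2 changes of the set under the alternatives, 255 had the direction reported. That count includes settings that changed only the S/N filter, the variance model or the block. These leave a probe's log2 change as it was and could not reverse it, so the count overstates the stability.

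Probes of the set over 2-fold, 3 as reported, numbered 6 at a 1.5-fold cutoff, 1 at 3-fold, 4 under quantile normalization, where both *BNIP3* probes passed, and 2 with normexp, which left out *VEGF*. With 1 array left out they numbered 2 to 5, with 2 without mock replicate 1 and 5 without mock replicate 2. Over all probes the count of 554 became 237 with normexp, 363 with a floor of 0.05, 1373 without an S/N filter, 302 with S/N over 3 on all 4 arrays, 2234 at 1.5-fold, 119 at 3-fold and 782 to 1192 with 1 array left out. Of these, 60.3% were higher as reported, 77.6% with normexp, 51.2% without an S/N filter and 71.9% without *SOX2* knockdown replicate 1.

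The count at an adjusted p under 0.05 in limma, 0 as reported, was 826 with median scaling, 776 with no further scaling and 758 from the authors' table. In these 3 fits limma set 1 common spread for all probes (infinite prior degrees of freedom), and *VEGF*, both *BNIP3* probes and the first *STC2* probe passed. It was 287 with a variance trend, where both *BNIP3* probes passed, 5 with S/N over 3 on all 4 arrays, and 0 with any 1 array left out. With the replicate number as a replicate block it was 0, and the numbers do not pair the samples, as deviations of same-numbered arrays correlated at r = -0.4845. The crossed pairing, chosen after seeing the data, also gave 0.

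Of the probes that changed direction, the dimmest *NDRG1* probe had the largest reported log2 change, 0.58, and was at -0.13 with normexp. *CA9* was at -0.01 with median scaling, -0.11 with normexp, 0.00 with no further scaling and 0.00 with the assay-normalized signal (an alternative chosen after seeing the data), and between -0.11 and 0.16 with 1 array left out. With 1 array left out *EGLN3* ran from -0.55 to 0.25, the second *STC2* probe from -0.40 to 0.63, *HIF1A* from -0.10 to 0.08 and *EPAS1* from -0.18 to 0.13. *HIF1A* was at 0.01 with quantile normalization and *EPAS1* at 0.01 with the assay-normalized signal. The causes were not tested.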
